A study of Mus musculus with 14 samples.

Results

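Cytochrome P450 families 1 to 4 were described gene by gene across mouse liver tumours with and without overexpression of Aoah. Members were all gene symbols of these 4 families in the deposited expression table, with pseudogenes left out. There were 75 members in 19 subfamilies among 29923 symbols. Of these, 56 members, among 13466 genes, reached 1 TPM (a level scaled for transcript length and for the library's total) in at least 3 tumours and were tested. The symbols were matched without any measured value, but members were chosen with earlier results of these data known.

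Every tumour was labelled a spontaneous hepatocellular carcinoma of a C57BL/6 mouse and was induced, per the series text, by hydrodynamic tail-vein injection of transposon plasmids with the SB100 transposase. There were 4 groups. Luc Aoah tumours (n = 4) received MYC with luciferase (MYC-Luc) and the PKT2/CLP-Aoah plasmid, which encodes acyloxyacyl hydrolase. Luc vector tumours (n = 4) received MYC-Luc and the empty PKT2/CLP-Vec plasmid. LucOS Aoah tumours (n = 3) received the MYC-LucOS plasmid, which adds the OVA, SIN and SIY antigens, with PKT2/CLP-Aoah. LucOS vector tumours (n = 3) received MYC-LucOS with PKT2/CLP-Vec. MYC stood behind the EF1a promoter in both driver plasmids. The series text describes beta-catenin activation from a pT3-N90-CTNNB1 plasmid without saying which tumours received it, and an anti-PD1 protocol that no label ties to these tumours. Age and sex are not given in the labels. No label states that the numbered tumours are from different animals. The p-values therefore reflect the spread among these samples, which may be technical.

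P450 enzymes of families 1 to 4 are heme proteins of the endoplasmic reticulum that oxidise drugs, steroids, bile acids and fatty acids. Mature hepatocytes carry most of them, many in the pericentral zone of the liver lobule, where beta-catenin signalling is active. Several mouse members differ between the sexes under control of growth hormone, and several switch between fetal and adult liver. The genes lie in tandem clusters of close copies, so reads can be shared between copies and summed TPM per subfamily was tested beside each gene.

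Several libraries stood apart. Aoah stood at 283.7 to 685 TPM in Luc Aoah tumours, against 0.74 and 0.89 TPM in Luc vector 2 and 4 but 18.6 and 54.8 TPM in Luc vector 1 and 3. LucOS tumours had 576 to 931 TPM of Aoah with the Aoah plasmid and 1.28 to 3.43 TPM with vector. Luc Aoah 3 had 9.19% of its TPM in small noncoding RNA, against 1.06% to 2.37% elsewhere, and LucOS Aoah 3 had 16.6% in mitochondrial genes, against 3.41% to 8.45% elsewhere. All 9 hepatocyte markers in the table were above 19 TPM in every tumour. Summed, they reached 7578 to 23181 TPM in Luc with Aoah and 10126 to 14953 TPM in Luc with vector, and 8971 to 20071 TPM in LucOS Aoah and 4872 to 12788 TPM in LucOS vector tumours. In Luc, Alb and Ttr rose and Ahsg and Fgb fell among these 9, while Gpc3, Dlk1, H19 and Igf2, of 5 fetal liver and hepatic tumour genes, fell. Markers of other cells moved too. Summed, 6 T cell markers ranged over 36.9 to 63.1 TPM with Aoah in Luc, against 4.49 to 12.9 TPM with vector, and over 43.3 to 108 TPM with Aoah in LucOS, against 9.78 to 25.5 TPM with vector; 4 of the 6 rose in Luc and 2 in LucOS. In Luc, 3 of 4 tested stellate and fibroblast markers rose and all 3 tested neutrophil markers fell. The sum of 5 stellate and fibroblast markers lay at 88.9 to 149 TPM with Aoah, against 23.8 to 47.5 TPM with vector. That of 5 neutrophil markers lay at 48.5 to 97.2 TPM with Aoah, against 118 to 368 TPM with vector. Of 5 markers each, 2 Kupffer cell and 2 endothelial markers rose in Luc, and 1 of 3 tested cholangiocyte markers fell. None of these stellate, neutrophil, Kupffer, endothelial or cholangiocyte markers passed in LucOS. The part of these shifts in the P450 results was not tested. In such bulk tumours, fewer cells of a type and less RNA per cell cannot be told apart.

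The families together made up more of the RNA with Aoah in Luc. Their summed level was 6703, 6701, 4129 and 9578 TPM in the Luc Aoah tumours, against 1912, 2755, 2566 and 1742 TPM in the Luc vector tumours. Every Luc Aoah tumour lay above every Luc vector tumour. In LucOS the sum was 4580, 3563 and 7870 TPM with Aoah, against 945, 3779 and 1342 TPM with vector. The groups overlapped there, because LucOS vector 2 lay above LucOS Aoah 2. Cyp3a11 and Cyp2e1 together carried 57.7% to 61.9% of the summed level in Luc Aoah and 50.2% to 60.8% in Luc vector tumours. In LucOS they carried 50.2% to 60.2% with Aoah and 38.6% to 63.0% with vector.

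Expression was compared between Aoah and vector tumours of each model with limma on log2(TPM + 1), adjusted over all 13466 genes, with a call at an adjusted p under 0.05. In Luc, 28 of 56 members were called, against 22.2% of all genes. Of these, 26 rose, against 7.93% of all genes, and 2 fell, against 14.3%. The median log2 change was 0.95 over the 56 members and -0.24 over all genes tested. The groups did not overlap for 29 members, against 20.9% of all genes: every Luc Aoah tumour lay above for 26 members, against 11.8%, and below for 3, against 9.10%. Without Luc vector 1 and Luc vector 3, the vector tumours in which Aoah was raised, 14 members were called, 13 of them higher, while the share of all genes called was 2.68%, with 2.00% higher. Of the 28 calls, 19 held without any single tumour and 9 were lost without at least 1. When each tumour was centred on its median gene, the median change of all genes moved to 0.07 and 39 members were called, 37 higher and 2 lower, against 15.9% of all genes higher and 14.7% lower.

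In LucOS, 11 of 56 members were called, against 0.965% of all genes: 9 rose, against 0.750%, and 2 fell, against 0.215%. The median log2 change was 1.08 over the members and -0.02 over all genes. Every LucOS Aoah tumour lay above every LucOS vector tumour for 19 members, against 6.22% of all genes, and below for 2, against 6.07%. The LucOS count moved with single libraries. It was 25 (23 higher, 2 lower) without LucOS vector 2, against 2.63% of all genes, and 16 without LucOS Aoah 2, against 1.68%. It was 2 without LucOS Aoah 1 (0.0970% of all genes) or LucOS vector 1 (0.462%), and 1 without LucOS Aoah 3 (0.105%) or LucOS vector 3 (0.172%). Leaving out a Luc tumour, which shares the variance estimate, gave 6 without Luc Aoah 1 (0.388% of all genes) or Luc vector 3 (0.502%). It gave 7 without Luc vector 4 (0.546%). Without Luc Aoah 2 (0.861%), Luc vector 1 (0.672%) or Luc vector 2 (0.874%), 6 members rose and 2 fell. The count went up without Luc Aoah 4, with 12 higher and 2 lower (0.928%), and without Luc Aoah 3, with 10 higher and 2 lower (0.964%). A fit of the 6 LucOS tumours alone called 0 members and 0.0446% of all genes. Of the 11 calls, that of Cyp2a5 held without any single tumour, and the other 10 were each lost without at least 1.

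LucOS vector 2 had the highest level of its group for 44 of 56 members. Over all 56 members it stood a median of 1.00 on the log2 scale above the mean of the other LucOS vector tumours. It lay within or above the LucOS Aoah range for 34 members. LucOS Aoah 3 was highest of its group for 50 members, and LucOS Aoah 2 was lowest for 49. In Luc, Luc Aoah 4 was highest of its group for 35 members and Luc Aoah 3 lowest for 49, while no Luc vector tumour was highest for more than 27.

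**Figure D1:**
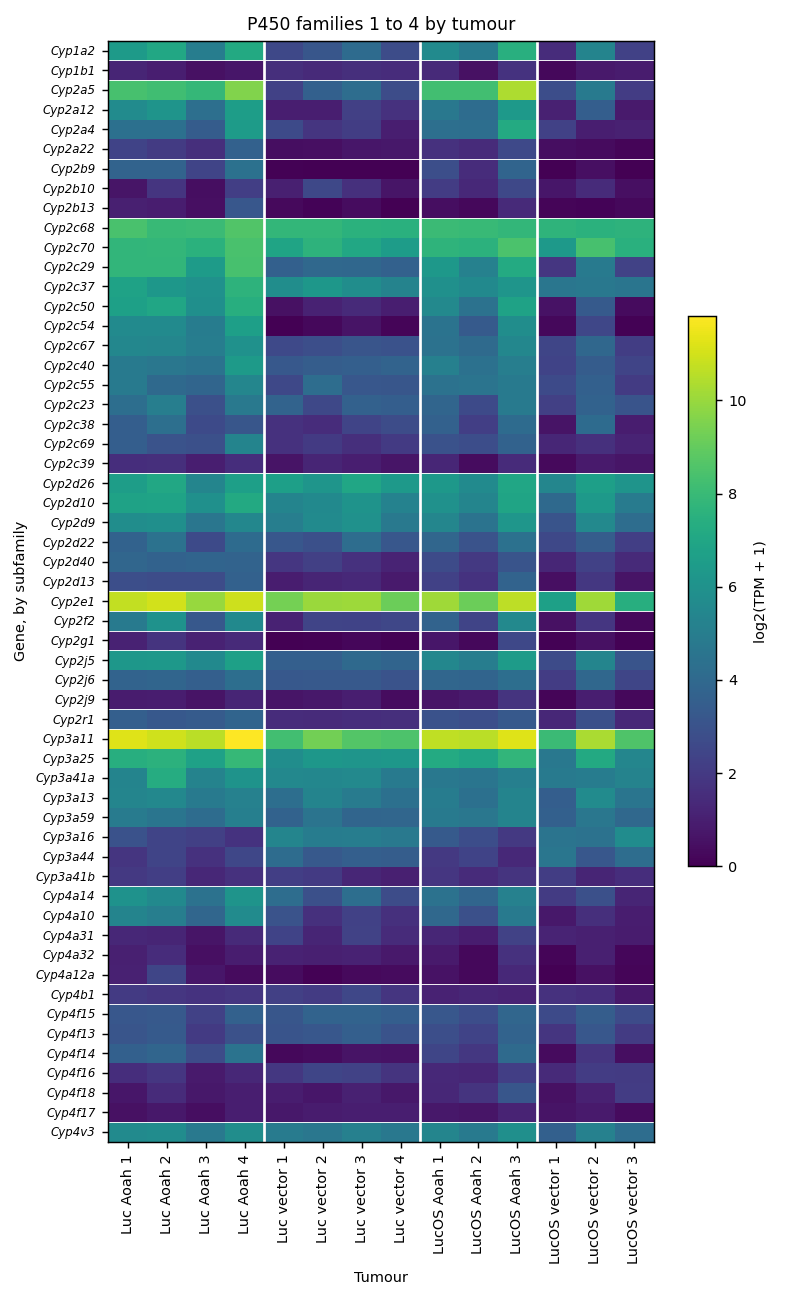
Level of the 56 tested P450 genes, as log2(TPM + 1), in rows grouped by subfamily, with the 14 tumours in columns by group. Cyp3a11 and Cyp2e1 are the brightest rows, the Cyp2a and several Cyp2c rows are brighter in Aoah than in vector columns, and the LucOS vector 2 column is brighter than the other LucOS vector columns for 44 genes.

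Cyp2a genes showed the largest rise among the tested subfamily sums in both models. These enzymes hydroxylate coumarin, nicotine and steroids. Their summed level averaged 499 ± 311 TPM in Luc Aoah and 15.1 ± 7.11 TPM in Luc vector tumours (SD, n = 4 each), which is a log2 change of 4.87 (SE 0.62, limma adjusted p = 0.000372). In LucOS the sum averaged 739 ± 693 TPM with Aoah and 18.4 ± 17.8 TPM with vector (SD, n = 3 each), which is a log2 change of 5.27 (SE 0.71, adjusted p = 0.00819). All 4 members rose in Luc, and Cyp2a5 and Cyp2a4 rose in LucOS.

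Cyp2a5, the coumarin 7-hydroxylase, stood at 326.9, 286.5, 229.7 and 762 TPM in Luc Aoah tumours, against 3.93, 11.2, 17.4 and 5.76 TPM in Luc vector tumours. It stood at 299, 295.5 and 1305 TPM in LucOS Aoah tumours, against 6.03, 26.8 and 3.25 TPM in LucOS vector tumours. The groups did not overlap in either model, and LucOS Aoah 3 was far above the other LucOS Aoah tumours. The log2 change was 5.27 in Luc (SE 0.65, adjusted p = 0.000352), and 5.70 in LucOS (SE 0.76, adjusted p = 0.00822). Without LucOS Aoah 3 the LucOS change was 4.99 (adjusted p = 0.0226), and Cyp2a5 was then the single member still called. Its share of the Cyp2a sum was 76.1% to 88.1% in Luc Aoah and 37.2% to 74.1% in Luc vector tumours, and 84.8% to 88.8% in LucOS Aoah and 53.1% to 69.5% in LucOS vector tumours. The Cyp2a5 share was thus higher in every Aoah tumour than in any vector tumour of its model.

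Cyp2a4, a steroid 15-alpha-hydroxylase that is female-biased in mouse liver, stood at 19.8, 19.7, 9.96 and 89.5 TPM in Luc Aoah tumours, against 5.32, 2.49, 3.37 and 1.01 TPM in Luc vector tumours. The LucOS Aoah tumours had 18.6, 18.4 and 148 TPM, against 3.81, 0.98 and 1.11 TPM in LucOS vector tumours. The groups did not overlap in either model. The log2 change was 2.78 in Luc (SE 0.71, adjusted p = 0.0196), and 3.82 in LucOS (SE 0.82, adjusted p = 0.0466). The Luc call was lost without Luc Aoah 4 or Luc vector 4 (changes of 2.17 to 2.48, adjusted p = 0.0567 to 0.0617). The LucOS call was lost without any one of 11 tumours, all but Luc Aoah 3, Luc Aoah 4 and LucOS Aoah 2 (changes of 2.84 to 4.31, adjusted p = 0.0570 to 0.166). Of the 50-base stretches of Cyp2a4 transcripts, 36.1% were shared with Cyp2a5, so part of its level may be reads of Cyp2a5, which was not tested. Cyp2a12, a steroid 7-alpha-hydroxylase, stood at 51.6, 67.2, 19.1 and 93.9 TPM in Luc Aoah tumours, against 0.98, 1.02, 3.76 and 2.21 TPM in Luc vector tumours. Its log2 change was 4.19 in Luc (SE 0.63, adjusted p = 0.000917), and 3.27 in LucOS (SE 0.73, adjusted p = 0.0520), and its groups did not overlap in either model. Cyp2a22 rose by 1.84 in Luc (SE 0.36, adjusted p = 0.00436), a call that was lost without Luc vector 1 and Luc vector 3 together (1.81, adjusted p = 0.0674).

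The Cyp2a5 and Cyp2a4 promoters are shown because the genes differ in level while their sequences nearly match. The RefSeq windows run from 250 bases before to 50 bases after the transcript start on GRCm38.p6, at chr7:26835089-26835388 for Cyp2a5 and chr7:26306942-26307241 for Cyp2a4, both on the plus strand. They were 97.7% identical over their alignment, and capitals mark the 6 bases of each that had no identical partner.
Cyp2a5: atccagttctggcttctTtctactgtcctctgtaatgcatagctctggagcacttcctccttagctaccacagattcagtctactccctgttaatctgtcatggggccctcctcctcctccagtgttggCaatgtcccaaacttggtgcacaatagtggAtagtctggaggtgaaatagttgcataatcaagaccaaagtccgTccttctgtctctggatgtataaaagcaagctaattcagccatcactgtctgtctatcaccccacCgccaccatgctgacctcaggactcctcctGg
Cyp2a4: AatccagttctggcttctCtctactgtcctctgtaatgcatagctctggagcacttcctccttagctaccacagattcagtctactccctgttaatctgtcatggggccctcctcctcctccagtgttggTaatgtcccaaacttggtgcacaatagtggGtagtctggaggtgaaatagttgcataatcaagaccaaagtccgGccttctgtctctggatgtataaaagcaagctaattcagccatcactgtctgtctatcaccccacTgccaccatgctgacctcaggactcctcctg
Between the genes of these windows, Cyp2a5 stood above Cyp2a4 in 13 of 14 tumours on the TPM scale, the exception being Luc vector 1 at 3.93 TPM for Cyp2a5 and 5.32 TPM for Cyp2a4. A closer pair, Cyp2b9 and Cyp2b13, had windows 99.3% identical.

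**Figure D2:**
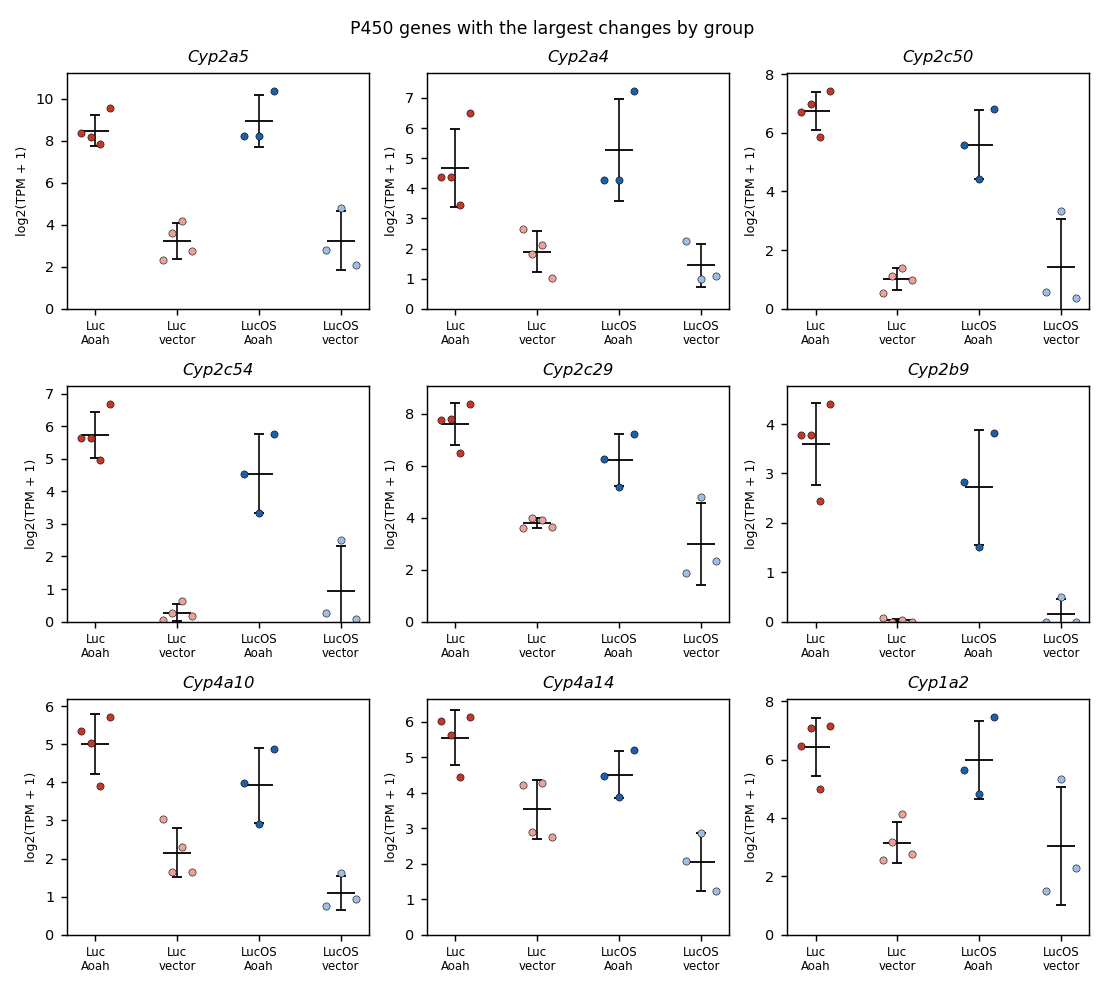
Level of 9 P450 genes, as log2(TPM + 1), in each tumour of the 4 groups; points are tumours and bars the mean with SD, cut off at 0 where they reach below it. Cyp2a5, Cyp2c50, Cyp2c54, Cyp2c29 and Cyp2b9 show no overlap between Aoah and vector tumours of either model, and Cyp1a2 overlaps in LucOS, where LucOS vector 2 stood at 39.02 TPM.

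Cyp2c genes, which epoxidise and hydroxylate arachidonic acid and other lipids besides drugs, held the most rising members of any subfamily. In Luc, 9 of 13 tested members rose and none fell, and 4 rose in LucOS. The change of the sum was smaller than that of its strongest members. It averaged 1205 ± 431 TPM in Luc Aoah and 451 ± 78.2 TPM in Luc vector tumours (SD, n = 4 each), which is a log2 change of 1.36 (SE 0.28, adjusted p = 0.00562). Without Luc vector 1 and Luc vector 3 it was 1.34 (adjusted p = 0.0818). In LucOS it averaged 848 ± 254 TPM with Aoah and 469.7 ± 165 TPM with vector (SD, n = 3 each), a change of 0.87 that did not pass (SE 0.32, adjusted p = 0.263).

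On the log2(TPM + 1) scale, which understates changes of low genes, Cyp2c50 had the largest change of all members in Luc. The ranking depended on the scale. In the authors' deposited table for Luc, Cyp2b9 (log2 change 9.61) and Cyp2c54 (8.28) rose more than Cyp2c50 (6.99). Cyp2c50 stood at 105, 125, 57.0 and 169 TPM in Luc Aoah tumours, against 0.45, 1.18, 1.65 and 0.99 TPM in Luc vector tumours. Among LucOS tumours, levels were 46.5, 20.6 and 110.3 TPM with Aoah, against 0.49, 9.00 and 0.29 TPM with vector. No Aoah tumour overlapped a vector tumour of its model, and LucOS vector 2 was the highest vector tumour. The log2 change was 5.73 in Luc (SE 0.60, adjusted p = 7.29e-05), and 4.18 in LucOS (SE 0.70, adjusted p = 0.0167). With any one of LucOS Aoah 1 and 3 or LucOS vector 1 and 3 left out, the LucOS call was lost (changes of 3.58 to 4.19, adjusted p up to 0.0811).

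Cyp2c54, its close copy, stood at 48.5, 49.2, 30.0 and 101 TPM in Luc Aoah tumours, against 0.03, 0.20, 0.55 and 0.13 TPM in Luc vector tumours. LucOS levels were 21.9, 9.06 and 53.6 TPM with Aoah and 0.21, 4.74 and 0.05 TPM with vector. Aoah and vector tumours did not overlap in either model. The change was 5.45 in Luc (SE 0.55, adjusted p = 5.82e-05), and 3.58 in LucOS (SE 0.64, adjusted p = 0.0217). Leaving out LucOS Aoah 1 or 3 or LucOS vector 1 or 3 ended the LucOS call (changes of 2.97 to 3.59, adjusted p = 0.0671 to 0.104). Of their 50-base transcript stretches, 29.9% for Cyp2c50 and 25.7% for Cyp2c54 were shared with other genes. Together both genes made up 11.3% to 16.2% of the Cyp2c sum in Luc Aoah and 0.108% to 0.506% in Luc vector tumours, and 4.71% to 14.5% in LucOS Aoah and 0.0795% to 2.11% in LucOS vector tumours.

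Cyp2c29, an arachidonic acid epoxygenase induced through the xenobiotic receptors, stood at 216, 220.5, 88.5 and 329.9 TPM in Luc Aoah tumours, against 11.2, 14.8, 14.3 and 11.6 TPM in Luc vector tumours. With Aoah the LucOS tumours held 76.5, 35.3 and 148 TPM, and with vector 2.66, 27.1 and 4.03 TPM. The groups did not overlap in either model. The change was 3.81 in Luc (SE 0.58, adjusted p = 0.000994), and 3.22 in LucOS (SE 0.67, adjusted p = 0.0409). The LucOS call was lost without any one of 10 tumours, all but Luc Aoah 3, Luc Aoah 4, LucOS Aoah 2 and LucOS vector 2 (changes of 2.65 to 3.22, adjusted p = 0.0593 to 0.172).

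Cyp2c40, which hydroxylates arachidonic acid and is female-biased in mouse liver, stood at 27.8, 24.3, 21.5 and 85.1 TPM in Luc Aoah tumours, against 8.68, 10.0, 10.8 and 12.5 TPM in Luc vector tumours. The LucOS Aoah tumours had 34.2, 20.4 and 32.1 TPM, against 4.12, 9.94 and 4.32 TPM in LucOS vector tumours. The groups were separate in both models, and the change was 1.59 in Luc (SE 0.38, adjusted p = 0.0125), and 2.13 in LucOS (SE 0.43, adjusted p = 0.0339). In LucOS its call was lost without Luc Aoah 1, Luc vector 3 or 4, LucOS Aoah 1 or 3, or LucOS vector 1 or 3 (changes of 1.94 to 2.13, adjusted p = 0.0504 to 0.147). Its Luc call was lost without Luc vector 1 and Luc vector 3 together (adjusted p = 0.138). Of its 50-base transcript stretches 70.2% were shared with other genes, 41.0% with Cyp2c69. Cyp2c67, Cyp2c69, Cyp2c37, Cyp2c55 and Cyp2c68 also rose in Luc, by 0.59 for Cyp2c68 to 2.59 for Cyp2c67. None of these 5 passed by limma in LucOS. In the authors' deposited DESeq2 table for LucOS, Cyp2c69 (adjusted p = 7.30e-07), Cyp2c37 (0.000461), Cyp2c55 (0.00102) and Cyp2c67 (0.0132) were higher. Cyp2c68 did not pass there (0.732). The Luc call of Cyp2c37 was lost without any one of 10 tumours, all but Luc Aoah 2, Luc Aoah 3, Luc vector 2 and LucOS vector 2 (adjusted p = 0.0501 to 0.146). That of Cyp2c55 was lost without Luc Aoah 1 or 4, Luc vector 1, 3 or 4, or LucOS Aoah 1 or 3 (adjusted p = 0.0501 to 0.139). That of Cyp2c69 was lost without Luc vector 1 and Luc vector 3 together (1.68, adjusted p = 0.137).

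Cyp2c68, the most abundant Cyp2c gene, stood at 339, 243.8, 265 and 389.8 TPM in Luc Aoah tumours, against 224, 222, 183 and 180.5 TPM in Luc vector tumours. It stood at 268, 250.1 and 227 TPM in LucOS Aoah tumours, against 203, 186 and 196 TPM in LucOS vector tumours. The groups were separate in both models, yet the log2 change was 0.59 in Luc (SE 0.17, adjusted p = 0.0283), and 0.35 in LucOS (SE 0.20, adjusted p = 0.527). Its share of the Cyp2c sum was 21.7% to 34.4% in Luc Aoah and 39.8% to 50.6% in Luc vector tumours. In LucOS the shares overlapped, at 20.2% to 39.7% with Aoah and 28.5% to 61.5% with vector. The Luc call was lost without Luc Aoah 1 or 4 or Luc vector 3 or 4 (changes of 0.47 to 0.55, adjusted p = 0.0734 to 0.103). Cyp2c70, which makes the muricholic bile acids of rodents, had a log2 difference of 0.84 in Luc (SE 0.37, adjusted p = 0.103) and of 0.50 in LucOS (SE 0.43, adjusted p = 0.730), with overlapping groups in both.

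In the Cyp2b subfamily the sum averaged 16.8 ± 11.0 TPM in Luc Aoah and 2.59 ± 1.97 TPM in Luc vector tumours (SD, n = 4 each), which is a log2 change of 2.26 (SE 0.55, adjusted p = 0.0143). The Luc call of the sum was lost without Luc Aoah 4 (1.89, adjusted p = 0.0569), without Luc vector 4 (1.94, adjusted p = 0.0506) and without Luc vector 1 and Luc vector 3 together (2.28, adjusted p = 0.117). It was also lost with no filter on low values. In LucOS the change was 2.27 (SE 0.63, adjusted p = 0.114). Cyp2b9, a female-biased gene of mouse liver, stood at 12.6, 12.7, 4.42 and 20.1 TPM in Luc Aoah tumours, while the Luc vector tumours were listed at 0.05, 0, 0.02 and 0 TPM. In LucOS it stood at 6.08, 1.84 and 13.2 TPM with Aoah, and the vector tumours were listed at 0, 0.41 and 0 TPM. No overlap was seen in either model. On the log2(TPM + 1) scale, which understates changes of low genes, the change was 3.57 in Luc (SE 0.43, adjusted p = 0.000191), and 2.55 in LucOS (SE 0.50, adjusted p = 0.0314). In LucOS the call was lost without Luc Aoah 1, Luc vector 3, LucOS Aoah 1 or 3, or LucOS vector 1 or 3 (changes of 2.00 to 2.55, adjusted p = 0.0502 to 0.126). Cyp2b10, the standard target of the receptor Nr1i3 (CAR), was not called by limma. Its change was -0.20 in Luc (SE 0.45, adjusted p = 0.744) and 1.13 in LucOS (SE 0.52, adjusted p = 0.392). In the authors' deposited DESeq2 tables Cyp2b10 was higher in LucOS (log2 change 1.81, adjusted p = 0.0320) and did not pass in Luc (-0.23, adjusted p = 0.846).

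Cyp1a2, the caffeine-oxidising enzyme of hepatocytes and a target of the aryl hydrocarbon receptor, stood at 86.9, 135, 31.0 and 142 TPM in Luc Aoah tumours, against 4.82, 7.98, 16.4 and 5.80 TPM in Luc vector tumours. Among LucOS tumours, levels were 49.6, 27.4 and 175 TPM with Aoah, against 1.81, 39.02 and 3.90 TPM with vector. The groups were separate in Luc and overlapped in LucOS. The change was 3.27 in Luc (SE 0.82, adjusted p = 0.0208), and 2.95 in LucOS (SE 0.95, adjusted p = 0.198). The Luc call was lost without Luc Aoah 4 (3.03, adjusted p = 0.0663), without Luc vector 1 (3.07, adjusted p = 0.0564), without Luc vector 4 (3.15, adjusted p = 0.0600) and without Luc vector 1 and Luc vector 3 together (3.46, adjusted p = 0.125). Cyp1a1 did not reach the expression threshold, and Cyp1b1, which hydroxylates oestradiol mainly outside the liver, had a change of -0.64 in Luc (SE 0.25, adjusted p = 0.0740) and 0.55 in LucOS (SE 0.29, adjusted p = 0.483). Every Luc Aoah tumour lay below every Luc vector tumour for Cyp1b1, the Aoah tumours between 0.44 and 1.37 TPM, the vector tumours between 1.66 and 2.01 TPM. In the authors' deposited DESeq2 table for Luc, Cyp1b1 was lower (log2 change -0.88, adjusted p = 0.0110).

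Cyp2f2, which oxidises naphthalene in lung and is periportal in liver, stood at 28.6, 63.5, 8.64 and 47.2 TPM in Luc Aoah tumours, against 1.19, 4.35, 4.20 and 4.75 TPM in Luc vector tumours. The groups were separate, with Luc Aoah 3 nearest to the vector tumours. Its change was 2.83 in Luc (SE 0.68, adjusted p = 0.0142) and 3.04 in LucOS (SE 0.78, adjusted p = 0.0907), and the Luc call was lost without Luc Aoah 4 (2.61, adjusted p = 0.0504) and without Luc vector 1 and Luc vector 3 together (2.47, adjusted p = 0.153). The lung marker Sftpc rose in Luc, between 1.02 and 3.40 TPM with Aoah, against 0.13 to 0.68 TPM in the vector tumours (change 1.09, adjusted p = 0.00954), and Scgb1a1, the club cell marker, did not pass 0.27 TPM in any tumour. Cyp2g1, an olfactory P450, rose in Luc by 1.26 (SE 0.37, adjusted p = 0.0301) at 1.16 to 2.44 TPM with Aoah and up to 0.17 TPM with vector. This call was lost without any one of Luc Aoah 1, 3 or 4 or Luc vector 1, 3 or 4 (changes of 1.23 to 1.34, adjusted p = 0.0508 to 0.0817), and without Luc vector 1 and Luc vector 3 together (1.28, adjusted p = 0.194).

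Cyp2e1 was not called by limma in either model. This enzyme, which oxidises ethanol and paracetamol and marks the pericentral zone, stood at 1709, 2019.7, 1029 and 1939.9 TPM in Luc Aoah tumours, against 657, 1049, 1079 and 571 TPM in Luc vector tumours. LucOS levels were 1104, 574 and 1565 TPM with Aoah and 104, 1110.4 and 169 TPM with vector. The groups overlapped in both models through Luc Aoah 3 and LucOS vector 2. The log2 change was 1.00 in Luc (SE 0.57, adjusted p = 0.192), and 1.88 in LucOS (SE 0.66, adjusted p = 0.234). In the authors' deposited DESeq2 tables Cyp2e1 was higher in Luc (log2 change 1.21, adjusted p = 0.000661) and did not pass in LucOS (1.32, adjusted p = 0.322).

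The Cyp2d sum, of genes best known for drug and steroid oxidation, averaged 278 ± 89.0 TPM in Luc Aoah and 199 ± 53.6 TPM in Luc vector tumours (SD, n = 4 each), a change of 0.45 (SE 0.39, adjusted p = 0.390). In LucOS it averaged 229 ± 119 TPM with Aoah and 145 ± 89.4 TPM with vector (SD, n = 3 each), a change of 0.70 (SE 0.45, adjusted p = 0.603). Its most abundant gene, Cyp2d26, had a log2 difference of -0.13 in Luc (SE 0.37, adjusted p = 0.809). Cyp2d40 and Cyp2d13 rose in Luc, by 2.04 (SE 0.29, adjusted p = 0.000620) and 1.92 (SE 0.41, adjusted p = 0.00722). Cyp2d40 was even in the Aoah tumours, at 12.2 to 13.7 TPM, and less so in the vector tumours, at 1.28 to 3.78 TPM. The Cyp2d13 call was lost without Luc vector 1 and Luc vector 3 together (1.97, adjusted p = 0.0780). Cyp2d9, a male-biased testosterone 16-alpha-hydroxylase, had a log2 difference of 0.08 in Luc (SE 0.48, adjusted p = 0.911).

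Of 3 tested Cyp2j genes 1 rose in Luc, as did Cyp2r1, the sole Cyp2r gene. Cyp2j6 had a log2 difference of 0.65 (adjusted p = 0.137) and Cyp2j9 of 0.22 (adjusted p = 0.526) there. Cyp2j5, an arachidonic acid epoxygenase, stood at 75.0, 78.7, 47.3 and 105 TPM in Luc Aoah tumours, against 11.0, 10.7, 15.5 and 13.1 TPM in Luc vector tumours. Its groups were separate and its change was 2.47 (SE 0.48, adjusted p = 0.00431), while in LucOS, where LucOS vector 2 reached 40.5 TPM, the change was 1.94 (SE 0.55, adjusted p = 0.119). Cyp2r1, the vitamin D 25-hydroxylase, stood at 10.81, 8.4, 9.47 and 12.8 TPM in Luc Aoah tumours, against 1.86, 1.70, 1.90 and 2.00 TPM in Luc vector tumours. The spread within the groups was small, and the change was 1.98 (SE 0.30, adjusted p = 0.000862). In LucOS its change was 1.19 (SE 0.35, adjusted p = 0.128). The Cyp2j5 call was lost without Luc vector 1 and Luc vector 3 together (2.54, adjusted p = 0.0525).

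**Figure D3:**
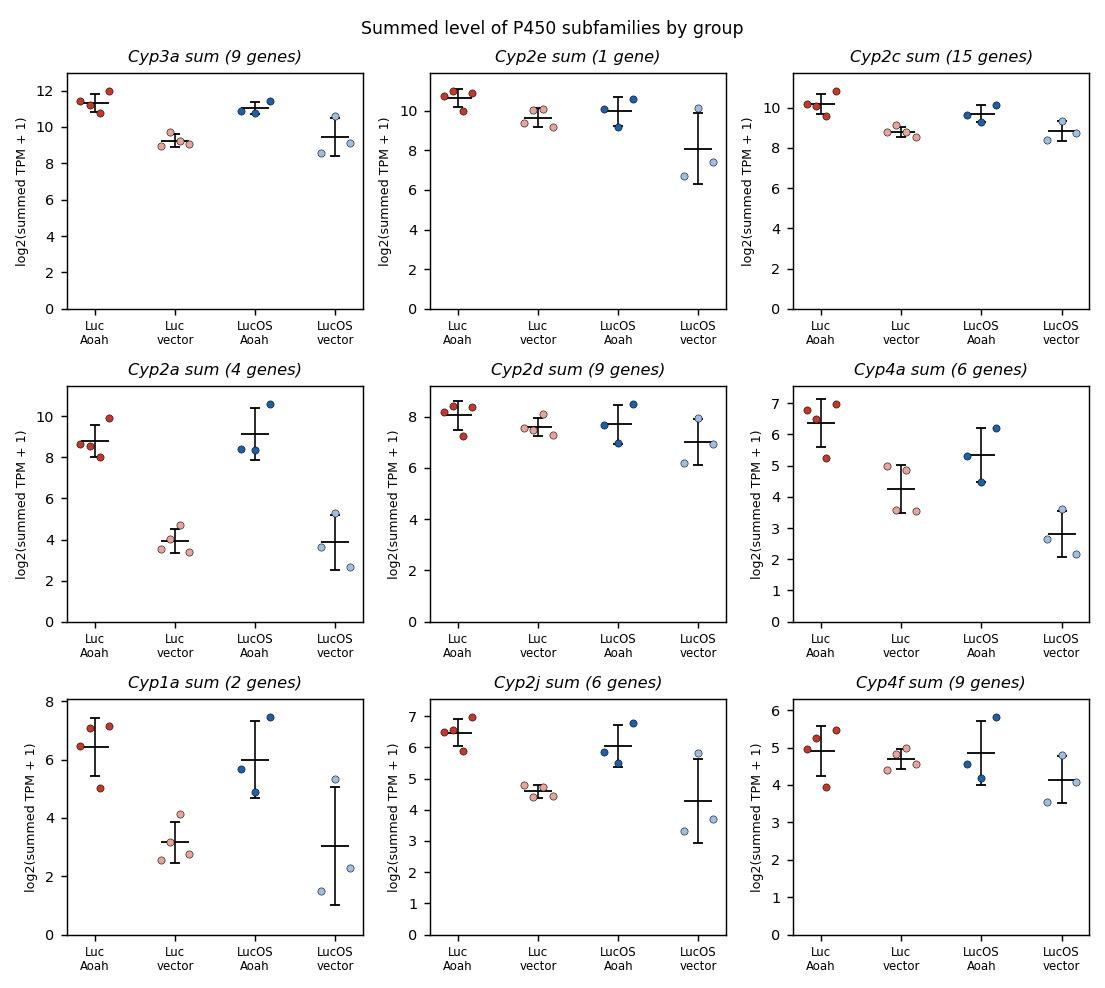
Summed level of 9 P450 subfamilies, as log2(summed TPM + 1), in each tumour of the 4 groups; points are tumours and bars the mean with SD, cut off at 0 where they reach below it. The Cyp2a sum lies between 261 and 957 TPM in Luc with Aoah and between 9.65 and 25.2 TPM in Luc with vector, whereas Cyp2d and Cyp4f overlap between Aoah and vector in both models.

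Family 4 enzymes hydroxylate the far end of fatty acids and eicosanoids. The Cyp4a sum averaged 89.4 ± 37.9 TPM in Luc Aoah and 20.1 ± 10.6 TPM in Luc vector tumours (SD, n = 4 each), which is a log2 change of 2.12 (SE 0.48, adjusted p = 0.00999). In LucOS it averaged 44.4 ± 26.2 TPM with Aoah and 6.61 ± 3.97 TPM with vector (SD, n = 3 each), a change of 2.53 (SE 0.55, adjusted p = 0.0491). This LucOS call was lost without any one of 10 tumours, all but Luc Aoah 3, Luc vector 2, LucOS Aoah 2 and LucOS vector 2 (adjusted p = 0.0524 to 0.231). Cyp4a10 and Cyp4a14 made up most of it, and both are standard targets of the fatty acid receptor Ppara.

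Cyp4a10 stood at 39.7, 32.1, 13.9 and 51.7 TPM in Luc Aoah tumours, against 7.16, 2.14, 3.91 and 2.15 TPM in Luc vector tumours. With Aoah the LucOS tumours held 14.8, 6.45 and 28.6 TPM, and with vector 0.68, 2.05 and 0.91 TPM. The Aoah tumours were the higher ones throughout, in both models. The change was 2.85 in Luc (SE 0.46, adjusted p = 0.00124), and 2.83 in LucOS (SE 0.53, adjusted p = 0.0261). Without LucOS Aoah 1 or 3 or LucOS vector 1 or 3 the LucOS call was lost (changes of 2.34 to 2.80, adjusted p = 0.0760 to 0.122).

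Cyp4a14 stood at 63.8, 48.2, 20.5 and 69.1 TPM in Luc Aoah tumours, against 17.5, 6.39, 18.5 and 5.68 TPM in Luc vector tumours. The LucOS Aoah tumours had 21.2, 13.6 and 35.6 TPM, against 3.20, 6.31 and 1.35 TPM in LucOS vector tumours. The groups were again separate. The change was 2.02 in Luc (SE 0.48, adjusted p = 0.0127), and 2.45 in LucOS (SE 0.55, adjusted p = 0.0499). The Luc call was lost without Luc Aoah 4 (1.83, adjusted p = 0.0517). The LucOS call was lost without any one of 11 tumours, all but Luc Aoah 3, LucOS Aoah 2 and LucOS vector 2 (changes of 2.04 to 2.47, adjusted p = 0.0528 to 0.244). Cyp4a31 and Cyp4a32, further copies in the same cluster, had a log2 difference of -0.68 (SE 0.33, adjusted p = 0.127) and -0.03 (SE 0.29, adjusted p = 0.955) in Luc.

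Of 6 tested Cyp4f genes, 1 rose in Luc. Cyp4f14, which acts on leukotriene B4 and vitamin E, stood at 11.2, 13.5, 5.60 and 21.3 TPM in Luc Aoah tumours, against 0.18, 0.28, 0.55 and 0.48 TPM in Luc vector tumours. The groups were separate and the change was 3.22 (SE 0.46, adjusted p = 0.000546), against 1.95 in LucOS (SE 0.53, adjusted p = 0.104). Cyp4f13, its neighbour, had a change of -0.38 (SE 0.37, adjusted p = 0.444), and Cyp4f15, the most abundant Cyp4f gene, of -0.43 (SE 0.32, adjusted p = 0.310) in Luc. Cyp4v3, a fatty acid hydroxylase, had a log2 difference of 0.61 in Luc (SE 0.32, adjusted p = 0.162) and of 1.04 in LucOS (SE 0.37, adjusted p = 0.239). Cyp4b1, an enzyme mainly of lung, had a log2 difference of -0.28 in Luc (SE 0.22, adjusted p = 0.336) and of -0.15 in LucOS (SE 0.25, adjusted p = 0.901).

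The Cyp3a subfamily held the most abundant member and also the only members that limma called lower. Cyp3a enzymes oxidise a wide range of drugs and steroids. The sum averaged 2695 ± 941 TPM in Luc Aoah and 619.7 ± 158 TPM in Luc vector tumours (SD, n = 4 each), which is a log2 change of 2.09 (SE 0.37, adjusted p = 0.00222). In LucOS it averaged 2123 ± 527 TPM with Aoah and 833 ± 628 TPM with vector (SD, n = 3 each), a change of 1.58 (SE 0.42, adjusted p = 0.106). Without Luc vector 1 and Luc vector 3 the Luc change was 1.93 (adjusted p = 0.0540).

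Cyp3a11, the main adult enzyme and the usual mouse counterpart of human CYP3A4, stood at 2414, 1954, 1527 and 3587 TPM in Luc Aoah tumours, against 303, 625, 395 and 365 TPM in Luc vector tumours. Among LucOS tumours, levels were 1651, 1549.7 and 2389 TPM with Aoah, against 259.9, 1272 and 374 TPM with vector. Aoah and vector tumours did not overlap in either model. The change was 2.47 in Luc (SE 0.41, adjusted p = 0.00152), and 1.87 in LucOS (SE 0.47, adjusted p = 0.0847). Cyp3a25 also rose in Luc, by 1.30 (SE 0.40, adjusted p = 0.0374), with a range of 109 to 238 TPM under Aoah, against 54.5 to 75.3 TPM under vector. Its Luc call was lost without Luc Aoah 1 or 4 or Luc vector 1, 3 or 4 (changes of 1.14 to 1.35, adjusted p = 0.0711 to 0.113).

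Cyp3a16, known from fetal and newborn mouse liver, went the other way. It stood at 6.79, 4.31, 3.76 and 2.34 TPM in Luc Aoah tumours, against 40.6, 29.9, 31.0 and 26.6 TPM in Luc vector tumours. LucOS levels were 9.24, 5.88 and 2.85 TPM with Aoah and 22.4, 20.8 and 51.9 TPM with vector. Every Aoah tumour lay below every vector tumour of its model. The change was -2.69 in Luc (SE 0.35, adjusted p = 0.000325), and -2.21 in LucOS (SE 0.40, adjusted p = 0.0229). Leaving out LucOS Aoah 3 (-1.84, adjusted p = 0.111) or LucOS vector 3 (-1.80, adjusted p = 0.0955) ended the LucOS call.

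Cyp3a44, a female-biased member, stood at 2.49, 4.39, 2.24 and 4.66 TPM in Luc Aoah tumours, against 16.9, 8.89, 10.8 and 10.3 TPM in Luc vector tumours. With Aoah the LucOS tumours held 2.91, 4.19 and 1.57 TPM, and with vector 23.9, 8.20 and 17.8 TPM. Here too the groups did not overlap. The change was -1.52 in Luc (SE 0.33, adjusted p = 0.00836), and -2.12 in LucOS (SE 0.38, adjusted p = 0.0221). Without Luc vector 1 and Luc vector 3 the Luc change was -1.29 (adjusted p = 0.131). The LucOS call of Cyp3a44 was lost without LucOS Aoah 1 (-2.15, adjusted p = 0.0811), LucOS Aoah 3 (-1.85, adjusted p = 0.111), LucOS vector 1 (-1.81, adjusted p = 0.0671) or LucOS vector 3 (-2.02, adjusted p = 0.0955).

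The ratio of Cyp3a16 to Cyp3a11 set these opposite moves within each tumour. Per 100 TPM of Cyp3a11 there were 0.0652 to 0.281 TPM of Cyp3a16 in Luc Aoah tumours, against 4.78 to 13.4 TPM in Luc vector tumours. The LucOS tumours had 0.119 to 0.560 TPM with Aoah, against 8.62, 1.63 and 13.9 TPM with vector. LucOS vector 2, the vector tumour with the highest Cyp3a11, had the lowest of these vector ratios and still lay above every Aoah tumour. Cyp3a41a and Cyp3a41b, female-biased copies with 93.7% of the 50-base stretches of Cyp3a41a in Cyp3a41b, had a log2 difference of 0.65 (SE 0.36, adjusted p = 0.180) and 0.16 (SE 0.29, adjusted p = 0.695) in Luc.

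**Figure D4:**
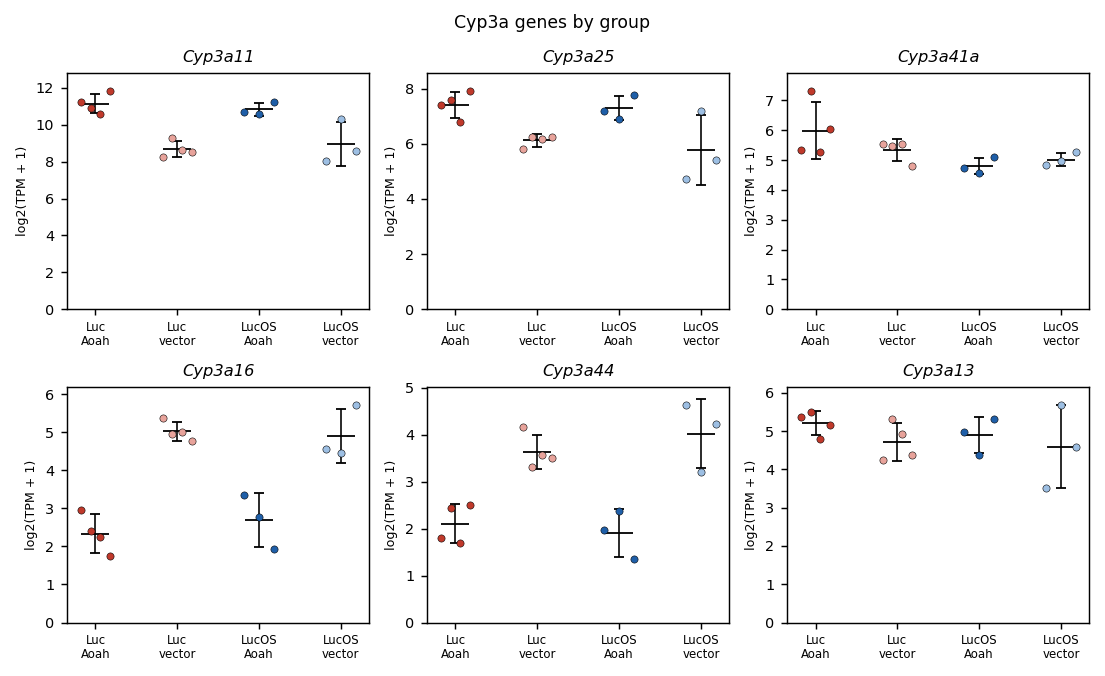
Level of 6 Cyp3a genes, as log2(TPM + 1), in each tumour of the 4 groups; points are tumours and bars the mean with SD, cut off at 0 where they reach below it. Cyp3a11 lies higher and Cyp3a16 and Cyp3a44 lie lower in every Aoah tumour than in any vector tumour of the same model, and Cyp3a41a and Cyp3a13 overlap.

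Cyp3a11, Cyp3a16 and Cyp3a44 lie in a cluster of 8 members on chromosome 5, whose order in RefSeq is Cyp3a57, Cyp3a16, Cyp3a41b, Cyp3a41a, Cyp3a44, Cyp3a11, Cyp3a25 and Cyp3a59. Their promoters are shown because neighbouring copies moved in opposite directions. The RefSeq windows on GRCm38.p6 lie at chr5:145879805-145880104 for Cyp3a11, chr5:145469674-145469973 for Cyp3a16 and chr5:145805825-145806124 for Cyp3a44, on the minus strand, again 250 bases before to 50 after the start. Capitals mark CAAAGTCCA, a core motif of the hepatocyte factor Hnf4a, at positions 142 to 150 of the Cyp3a11 window and 152 to 160 of the Cyp3a16 window, counted from the 5′ end. In the Cyp3a44 window they mark the nearest match, which begins at position 156 and differs by C7A, counted from the motif's first base.
Cyp3a11: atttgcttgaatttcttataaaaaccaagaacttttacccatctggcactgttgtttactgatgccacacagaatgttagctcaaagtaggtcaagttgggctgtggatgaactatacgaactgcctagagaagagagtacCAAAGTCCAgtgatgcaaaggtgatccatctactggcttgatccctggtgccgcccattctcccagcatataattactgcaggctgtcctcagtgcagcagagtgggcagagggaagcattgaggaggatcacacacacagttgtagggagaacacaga
Cyp3a16: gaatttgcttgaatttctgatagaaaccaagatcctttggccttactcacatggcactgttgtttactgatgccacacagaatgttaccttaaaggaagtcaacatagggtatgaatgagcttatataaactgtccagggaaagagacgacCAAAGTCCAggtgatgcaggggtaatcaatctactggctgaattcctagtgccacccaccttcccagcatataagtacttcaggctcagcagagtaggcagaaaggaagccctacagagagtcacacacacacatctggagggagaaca
Cyp3a44: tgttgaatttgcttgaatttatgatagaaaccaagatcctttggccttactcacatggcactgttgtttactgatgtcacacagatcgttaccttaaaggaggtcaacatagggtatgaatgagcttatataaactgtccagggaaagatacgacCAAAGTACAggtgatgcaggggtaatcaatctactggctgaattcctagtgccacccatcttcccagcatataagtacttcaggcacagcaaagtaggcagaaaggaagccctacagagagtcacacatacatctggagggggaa
The windows of both genes that fell were 93.4% identical to each other, and 74.8% (Cyp3a16) and 71.2% (Cyp3a44) identical to that of Cyp3a11. The Cyp3a41a window, of a gene that was not called, was 92.1% identical to that of Cyp3a16 and 93.0% to that of Cyp3a44.

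RefSeq held promoter windows for 60 of 75 members, 67 windows in all. Windows of a chromosome on which no member was placed were left out of the shares over all genes. On either strand, CAAAGTCCA was in the windows of 10 members (16.7%), against 0.56% of all genes with a window. These were Cyp2c40, Cyp2c65, Cyp2c67, Cyp2c68, Cyp2c69, Cyp2c70, Cyp3a11, Cyp3a16, Cyp3a41a and Cyp3a41b, and no match overlapped another motif searched. Many of these windows are near-copies of each other, so they are not independent matches. The motif was in windows of 5 of 21 members that rose in Luc and of 4 of 25 tested members that did not rise. TATAAA was in windows of 48.3% of members and 15.7% of all genes, and TTCNNNGAA, the Stat5 motif, of 5.00% of members and 9.55% of all genes. TTGCGCAA and TTATGTAA (C/EBP and Dbp), the DR1 nuclear receptor repeat and the Hnf1 palindrome were in no member's window, against 0.21%, 1.11%, 0.05% and 0.01% of all genes.

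Calls in other clusters were uneven as well. Over all genes, 7.93% rose in Luc and 0.750% in LucOS. The chromosome 19 cluster of 14 Cyp2c members, 12 of them tested, held 9 that rose in Luc and 4 that rose in LucOS. On chromosome 7 the run Cyp2b23, Cyp2b19, Cyp2g1, Cyp2a5, Cyp2a22, Cyp2a12 and Cyp2f2 had 5 tested members, all of which rose in Luc, and 1, Cyp2a5, rose in LucOS. Another chromosome 7 run, from Cyp2s1 to Cyp2a4, had 2 that rose among 4 tested in each model. The chromosome 4 run from Cyp4x1 to Cyp4b1 had 2 that rose among 6 tested in each model. The run of 8 Cyp2d genes on chromosome 15 had 1 call among 5 tested in Luc, near the 22.2% of all genes called. On chromosome 17 the run of 6 Cyp4f genes had none among 3 tested, and the separate run of Cyp4f14 and Cyp4f13 had 1 call in Luc, Cyp4f14.

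Grouped by known behaviour in mouse liver, the 9 pericentral members had 8 that rose in Luc (7.93% of all genes) and 4 in LucOS (0.750%), with median log2 changes of 3.27 and 2.95. The exception in Luc was Cyp2e1, which was higher in the authors' deposited table for Luc. The 1 periportal member, Cyp2f2, also rose in Luc, by 2.83, and had a log2 change of 3.04 in LucOS (adjusted p = 0.0907). Of 10 female-biased members, 5 rose and 2 fell in Luc, and 4 rose and 2 fell in LucOS. The risers in Luc were Cyp2a4, Cyp2b9, Cyp2c40, Cyp2c69 and Cyp4a14, and both that fell were Cyp3a genes. Neither of the 2 tested male-biased members, Cyp2d9 and Cyp4a12a, was called by limma in either model. Cyp4a12a averaged 0.73 TPM, where the log2(TPM + 1) scale understates changes. In the authors' deposited DESeq2 table for Luc, Cyp4a12a (log2 change 3.13, adjusted p = 5.08e-05) and the untested Cyp4a12b (2.07, adjusted p = 0.00126) were higher. Cyp2d9 did not pass there (0.27, adjusted p = 0.552). No male-biased member passed in the authors' deposited table for LucOS. Of 4 Ppara targets, Cyp4a10 and Cyp4a14 rose in both models. Of 4 targets of the xenobiotic receptors Nr1i3 and Nr1i2, limma called Cyp2c55, Cyp3a11 and Cyp2c29 higher in Luc and Cyp2c29 in LucOS. In the authors' deposited DESeq2 table for LucOS all 4 were higher. The adjusted p there was 0.0320 for Cyp2b10, 0.00102 for Cyp2c55, 0.0226 for Cyp3a11 and 0.00124 for Cyp2c29.

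Between models, the change had the same sign for 47 of 56 members and for 8402 of all 13466 genes. The 9 members that rose in both were Cyp2a4, Cyp2a5, Cyp2b9, Cyp2c29, Cyp2c40, Cyp2c50, Cyp2c54, Cyp4a10 and Cyp4a14, and Cyp3a16 and Cyp3a44 fell in both. A further 17 passed by limma in Luc alone, some of which passed in LucOS in the authors' deposited table, as given below. No member's Aoah effect differed between the models after adjustment (limma interaction, smallest adjusted p = 0.443, against 0.00743% of genes called), with 4 at an unadjusted p under 0.05 (7.14%, against 10.2% of all genes). Those 4 were Cyp1b1, Cyp2c54, Cyp2d40 and Cyp4a31, and the LucOS minus Luc difference was 1.20, -1.86, -1.10 and 1.15 for them in that order. Over the 56 members this difference ran from -1.86 to 1.33, with standard errors near the size of many of the differences, so the data do not show that the effects were equal.

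The LucOS and Luc models were also compared directly. Among vector tumours no member was called by limma, 8 had an unadjusted p under 0.05 (14.3%, against 14.2% of all genes), and the log2 change, LucOS over Luc, ran from -1.58 to 0.68. Cyp2e1 was at the low end, at 461 ± 563 TPM in LucOS vector (SD, n = 3) and 839 ± 262 TPM in Luc vector tumours (SD, n = 4). Among Aoah tumours no member was called, against 0.0817% of all genes, 7 had an unadjusted p under 0.05 (12.5%, against 7.01% of all genes), and the change ran from -1.38 to 1.10.

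**Figure D5:**
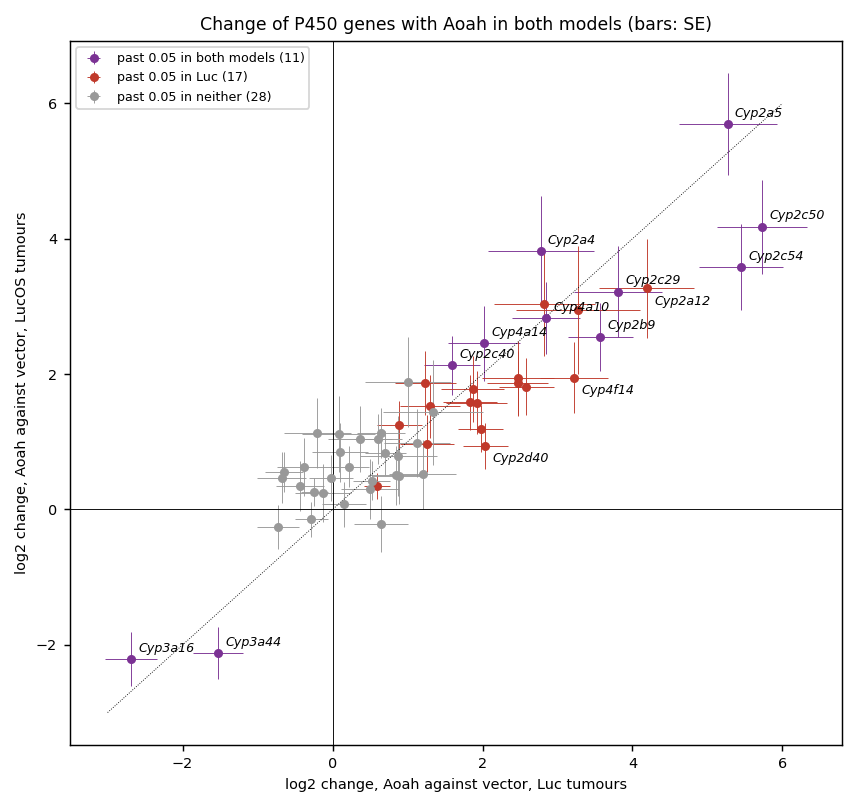
Log2 change with Aoah against vector of the 56 tested P450 genes, with Luc tumours on the x axis, LucOS tumours on the y axis, bars for the SE and a dotted line of equal change. There are 11 genes that pass by limma in both models, 17 that pass in Luc alone and 28 in neither. Cyp2a5 reaches 5.27 and 5.70, and Cyp3a16 and Cyp3a44 lie at the lower left.

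Partners of the P450 system did not move as one; over all genes, 7.93% rose and 14.3% fell in Luc. Of 6 electron donors and membrane partners, Pgrmc1 and Cyb5a rose and Por fell in Luc. Por, the reductase that feeds electrons to all of these enzymes, averaged 57.9 ± 26.1 TPM in Luc Aoah and 151 ± 51.5 TPM in Luc vector tumours (SD, n = 4 each), a change of -1.40 (SE 0.36, adjusted p = 0.0187), and had a log2 difference of -0.21 in LucOS (adjusted p = 0.918). Pgrmc1, a heme-binding partner of P450s, averaged 961 ± 137 TPM in Luc Aoah and 431 ± 32.8 TPM in Luc vector tumours (SD, n = 4 each), a change of 1.15 (SE 0.16, adjusted p = 0.000563), and rose in LucOS by 0.88 (adjusted p = 0.0438). Of 12 heme genes, 2 rose and 1 fell in Luc, and 1 rose in LucOS. The riser in both was Blvrb, a biliverdin reductase, with 0.87 in Luc (adjusted p = 0.00189) and 0.85 in LucOS (adjusted p = 0.0333). Cpox, of heme synthesis, fell in Luc by 1.10 on the log2 scale (adjusted p = 0.00563), and Alas1, the rate-setting enzyme of that pathway, had a log2 difference of -0.46 (adjusted p = 0.467).

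Of 19 receptors and transcription factors that drive P450 genes, 1 rose and 3 fell in Luc, shares near the 7.93% and 14.3% of all genes, and none passed in LucOS. The median log2 change of the 19 was -0.53 in Luc, against -0.24 over all genes. Rxra, the partner of several of these receptors, averaged 11.2 ± 7.73 TPM in Luc Aoah and 41.8 ± 19.5 TPM in Luc vector tumours (SD, n = 4 each), a change of -1.88 (SE 0.46, adjusted p = 0.0151). Foxa1 had a log2 difference of -1.03 (adjusted p = 0.0314) and Foxa2 of -0.88 (adjusted p = 0.0399), while the clock factor Dbp rose by 1.42 (adjusted p = 0.0192). Hnf4a had a change of -1.19 (adjusted p = 0.0584), Nr1i3 of 0.18 (adjusted p = 0.608) and Ppara of 0.21 (adjusted p = 0.474). Of 8 genes of growth hormone signalling and sex bias, 1 was called in Luc: Ghr, the growth hormone receptor, at 75.7 ± 20.5 TPM in Luc Aoah and 17.3 ± 3.48 TPM in Luc vector tumours (SD, n = 4 each), a change of 2.05 (SE 0.30, adjusted p = 0.000658). In LucOS its change was 1.16 (adjusted p = 0.139).

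Pericentral genes outside the families moved in part. For the counts below, 7.93% of all genes rose and 14.3% fell in Luc. Of 12 tested, Oat, Slc1a2 and Glul rose in Luc, by 2.56 (adjusted p = 0.00124), 2.72 (adjusted p = 0.000794) and 1.49 (adjusted p = 0.0135), and Tbx3 fell by 1.23 on the log2 scale (adjusted p = 0.0252). Axin2, a direct beta-catenin target, had a log2 difference of -0.45 (adjusted p = 0.292) and Lgr5 of -0.16 (adjusted p = 0.510). Of 11 periportal genes, Sult5a1 alone rose in Luc, by 1.03 (adjusted p = 0.0444), a share near the 7.93% of all genes. None of either list passed in LucOS, where 0.965% of all genes were called. Among 10 tested P450 genes of other families, 4 rose and 2 fell in Luc. Cyp7a1 and Cyp8b1, of bile acid synthesis, rose by 3.15 (adjusted p = 0.0158) and 2.59 (adjusted p = 0.00428), Cyp17a1, of steroid synthesis, fell by 1.96 on the log2 scale (adjusted p = 0.00274), and Cyp26a1, which clears retinoic acid, rose in both models, by 1.72 (adjusted p = 0.00138) in Luc and 1.60 (adjusted p = 0.0335) in LucOS.

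The authors' deposited tables gave more calls. In the authors' deposited table for Luc, 43 of 62 members with an adjusted p passed 0.05, 39 higher and 4 lower, against 31.7% of all genes with a value. They included 26 of the 28 limma calls in the same direction. The others, Cyp2a4 and Cyp2d13, had no adjusted p there. The 4 lower members were Cyp3a16, Cyp3a44, Cyp1b1 (DESeq2 adjusted p = 0.0110) and Cyp3a57 (0.0151), which limma did not test. In the authors' deposited table for LucOS, 18 of 61 members passed, 16 higher and 2 lower, against 2.77% of genes, and they included 8 of the 11 limma calls. The limma calls that did not pass there were Cyp2c50 (DESeq2 adjusted p = 0.0518), Cyp2c54 (0.128) and Cyp2b9 (0.111), each with a positive change. Members higher there without a limma call in LucOS were Cyp2a22, Cyp2b10, Cyp2c37, Cyp2c55, Cyp2c67, Cyp2c69, Cyp2f2, Cyp2g1, Cyp3a11 and Cyp4f14. Cyp3a16 and Cyp3a44 were lower in the authors' deposited tables for both models, and both tables rest on the same tumours as the limma fit.

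The remaining 19 members did not reach the expression threshold, and 17 members never reached 1 TPM in any tumour. The mean over the 14 tumours was at most 0.487 TPM for each of the 19. They were Cyp1a1, Cyp2b19, Cyp2b23, Cyp2c65, Cyp2c66, Cyp2d11, Cyp2d12, Cyp2d34, Cyp2j8, Cyp2j11, Cyp2j13, Cyp2s1, Cyp2u1, Cyp3a57, Cyp4a12b, Cyp4f37, Cyp4f39, Cyp4f40 and Cyp4x1. Cyp2j11 was listed at 6.82 TPM in Luc vector 1 and at 0 in the other tumours. Of all 75 members, 6 averaged at least 100 TPM, 25 lay between 10 and 100 TPM, 19 between 1 and 10 TPM, and 25 under 1 TPM.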

How the data were processed

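Bulk polyA RNA of 14 tumours in 4 groups was measured, with groups taken from the labels. Per the submitters' processing notes, the authors used RSEM and DESeq2 on mm39, with no version named. No aligner is named in those notes. Whether libraries kept strand is not stated, so overlapping genes may share reads. The authors deposited log2(TPM + 1) values, which were turned back to TPM. TPM keeps no depth, so depth per sample is unknown, and no count test, interval or detection limit was possible. The authors also deposited log2 fold changes and p-values of their own comparisons, read as Aoah over vector from the sign of Aoah; a reference table of gene names matched 95.5% and 95.6% of their identifiers in the Luc and LucOS tables, and the standard error, a score deposited by the authors, was not printed. A further deposited table of receptor repertoires was not used.

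limma 3.58.1 in R 4.3.3 was fitted on log2(TPM + 1) with 1 mean per group over all 14 tumours, moderated variances (trend, robust) and Benjamini-Hochberg adjustment at 0.05. Genes needed 1 TPM in 3 samples. Adjusted p-values in the text come from this fit, except those given for the authors' deposited tables. The fit was tested on simulated data. For subfamily sums, members were replaced by their summed TPM. Shared 50-base stretches were counted over GENCODE M21 transcripts, which are not the build of the files, and promoter windows are RefSeq's on GRCm38.p6, aligned with Biopython 1.88. Named genes were, per model, up to 10 called rises and 10 called falls and the most abundant member of each subfamily; other members are given where a group needed them, chosen after their values were seen. Members and lists were chosen with earlier results of these data known. Same-numbered tumours did not deviate together (correlations -0.55 to 0.10), so numbers were not treated as pairs.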

Additional observations from a re-analysis of the deposited data

Results flagged for a closer look

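Of 52 sets of values of named members in groups of 4 tumours, 2 held a tumour far from the others, and chance flags about 1 in 20 such sets. Luc Aoah 3 was low for Cyp4v3, with 26.0 TPM where its group otherwise had 48.8 to 53.5 TPM. Luc Aoah 3 was the tumour with the highest share of small noncoding RNA. Luc vector 1 was low for Cyp2f2, with 1.19 TPM where its group otherwise had 4.20 to 4.75 TPM.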

How the results depend on the processing

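No result changed direction under any alternative. In Luc the called members numbered 14 without Luc vector 1 and 3, 17 with the replicate block and 19 to 32 with 1 tumour left out, against 28; of all genes 2.68%, 4.59% and 6.40% to 39.3% were called there, against 22.2%. The called sums numbered 3 without Luc vector 1 and 3, 4 with the block and 5 to 11 with 1 tumour left out, against 10; the lowest was without Luc Aoah 4. In LucOS the called members numbered 1 with no filter on low values, 0 in a fit of the compared groups alone, 0 with the replicate block, 1 without Luc vector 1 and 3, 1 without Luc Aoah 3 and LucOS Aoah 3 together (chosen after seeing the data) and 1 to 25 with 1 tumour left out, against 11. Of all genes, 0.0501%, 0.0446%, 0%, 0.166%, 0.113% and 0.0970% to 2.63% were called in that order, against 0.965%. The called sums were 1, 0, 0, 1 and 1 under the same settings, 1 without the variance trend and 1 to 8 with 1 tumour left out, against 2; the highest was without LucOS vector 2. These settings test more genes or use fewer samples or degrees of freedom; beyond that the cause was not tested. Pseudocount 0.1, a 5 TPM filter and median centring kept the member counts within 1.5 times. The other contrasts had no call in any setting. The TPM carry no depth, so low members could not be given counting limits.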
